A study of Mus musculus with 3 samples.

Results

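The endothelial genes described here were a chosen list of 10 genes known as markers of the cells that line blood vessels: Pecam1, Cdh5, Icam2, Kdr, Tek, Tie1, Egfl7, Emcn, Cldn5 and Plvap. They were followed in 3 gene count tables of single mouse cells, which together listed 27886 genes. The tables of cardiac precursor cell cultures (CPCC) and of cardiac bodies (CB) listed all 10 members, and the table of mouse embryonic stem cells (mESC) listed 6. Cdh5, Kdr, Tie1 and Emcn were not listed in mESC. Each table held only genes that reached at least 1 count in some cell, so these members were given no value there. A gene below 1 count in all mESC cells would be left out in this way. The ratios against mESC cover the 6 listed members and leave out those that may have been absent from stem cells.

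The cells came from male F1 embryonic stem cells of a cross between a C57BL/6J mother and a CAST/EiJ father, and no allele was altered in any group. The mESC group held 215 cells grown in serum with Lif and the inhibitors PD0325901 and CHIR99021. The CPCC group held 175 cells from embryoid bodies formed by aggregation in hanging drops and culture with ascorbic acid. These bodies had been dissociated and their cells passaged in medium with EGF and Fgf2. The CB group held 232 cells dissociated from beating bodies picked under a microscope. These had formed by the same aggregation in hanging drops and a longer culture with ascorbic acid. Both differentiated groups are mixed cultures grown in dishes, neither was sorted, and the labels do not say which stem cell clone a cell came from. There was 1 sample per group, so no difference below has a replicate check and no p-value is given. The libraries of a sample had been sequenced in pools, 3 for mESC, 2 for CPCC and 3 for CB, and the values of each pool are given as a view of the spread within a sample. Per the study's methods, the indexed libraries from one microfluidic chip were pooled, some pools were then merged, and each final pool ran on a lane of its own, so chip and lane cannot be told apart. The labels do not say which chips or cultures a numbered pool holds.

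Endothelial cells form the inner wall of vessels and, as endocardium, of the heart chambers. In the embryo they arise from mesoderm that carries the VEGF receptor Kdr, and ETS and SOXF transcription factors then switch on a shared set of genes. That set includes adhesion proteins of the cell contacts, receptors for VEGF and angiopoietins, and proteins of the luminal surface. Some of the genes are not private to endothelium: Pecam1 and Egfl7 are also known from pluripotent cells, and Pecam1, Icam2 and Tek from blood cells.

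Promoters of 6 members (Egfl7, Emcn, Tek, Tie1, Kdr and Cldn5) were among the RefSeq promoter windows of build GRCm38.p6, each of 300 bases around a transcription start. Pecam1, Cdh5, Icam2 and Plvap had no entry. The bases before the start are printed for 4 of them, 5′ to 3′ on the strand of the gene and up to the first annotated exon, because the members described below occurred in the same cells while their promoters differed widely in sequence. Capitals mark GGAA, the core that ETS factors bind, or TTCC, which is GGAA on the other strand.
Emcn: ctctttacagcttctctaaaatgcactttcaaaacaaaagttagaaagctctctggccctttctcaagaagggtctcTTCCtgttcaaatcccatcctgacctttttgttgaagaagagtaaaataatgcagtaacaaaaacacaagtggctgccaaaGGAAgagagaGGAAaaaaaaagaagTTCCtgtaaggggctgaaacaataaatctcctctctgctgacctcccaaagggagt
Kdr: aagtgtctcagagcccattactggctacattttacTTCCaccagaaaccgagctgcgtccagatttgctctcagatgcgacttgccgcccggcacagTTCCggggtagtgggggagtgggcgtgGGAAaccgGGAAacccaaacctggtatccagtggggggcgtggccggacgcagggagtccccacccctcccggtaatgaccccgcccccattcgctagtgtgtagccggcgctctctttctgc
Egfl7, start 3: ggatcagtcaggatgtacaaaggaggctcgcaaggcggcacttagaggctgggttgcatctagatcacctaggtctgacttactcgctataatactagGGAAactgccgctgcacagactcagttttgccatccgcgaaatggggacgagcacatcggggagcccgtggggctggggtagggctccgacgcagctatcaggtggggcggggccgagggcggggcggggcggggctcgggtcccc
Cldn5: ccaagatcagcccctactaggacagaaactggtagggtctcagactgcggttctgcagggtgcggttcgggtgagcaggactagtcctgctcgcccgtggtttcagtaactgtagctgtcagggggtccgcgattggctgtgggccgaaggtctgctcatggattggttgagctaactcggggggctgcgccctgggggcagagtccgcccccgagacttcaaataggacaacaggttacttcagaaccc
The stretches lie at chr3:137340828-137341066 on the plus strand for Emcn, chr5:75978459-75978705 on the minus strand for Kdr, chr2:26586386-26586629 on the plus strand for the third start of Egfl7 and chr16:18776597-18776846 on the plus strand for Cldn5. In the whole 300-base windows, counted on both strands, where copies of GGAA and TTCC cannot overlap, Tie1 held 9 copies, Emcn 6, Kdr 5, the 3 starts of Egfl7 5, 4 and 1, Tek 2 and Cldn5 0. The median over all 32851 windows was 3 copies, and 96.0% of them held at least 1. As many copies as in Tie1 were present in 1.59% of all windows, as many as in Emcn in 15.7%, and as many as in Kdr in 28.6%. The pair CG, which reads the same on both strands and is in 94.6% of all windows, had a median of 7. It occurred 5, 8 and 31 times at the 3 starts of Egfl7, 19 times in Kdr, 12 times in Cldn5, 7 times in Tie1, 3 times in Tek and 2 times in Emcn. The printed stretches leave out Tie1, which had the most copies but only 38 bases before the first annotated exon. They also leave out the first and second starts of Egfl7, which had more copies than the third. The end of the window at the third start of Egfl7 was not found in an annotated transcript of the gene, unlike the other windows of the members. A match of letters is a description of the window and not a binding site.

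The depth was similar across the samples. Medians were 1528320 estimated counts per cell in mESC, 1437410 in CPCC and 1397870 in CB, single cells ranged from 4 to 8105510 counts, and 12 mESC, 6 CPCC and 13 CB cells lay under 100000 counts. A summed level of 3 counts, the most that a count of 0 allows, corresponds to between 0.00854 CPM (mESC) and 0.0109 CPM (CPCC) for a whole sample, where CPM is a gene's counts scaled to a fixed total of all gene counts. Detection in a cell means at least 1 count. Intervals are exact at 95% and cover counting error only, since the reads carry no molecular identifiers and repeat reads of the same molecule cannot be told apart.

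Endothelial genes were carried by 3 different sets of cells. In mESC, Pecam1 and Egfl7 were widespread and the other 4 listed members were rare or low. In CPCC, Pecam1 was detected mainly in cells that still carried pluripotent genes, Egfl7 was widespread in both pools, and 66.3% to 98.3% of the counts of Icam2, Tek, Plvap, Cdh5, Emcn and Kdr came from 4 cells of pool 2. In CB, all 10 members were concentrated in 21 cells of pool 2, most of which carried nearly the full set.

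**Figure D1:**
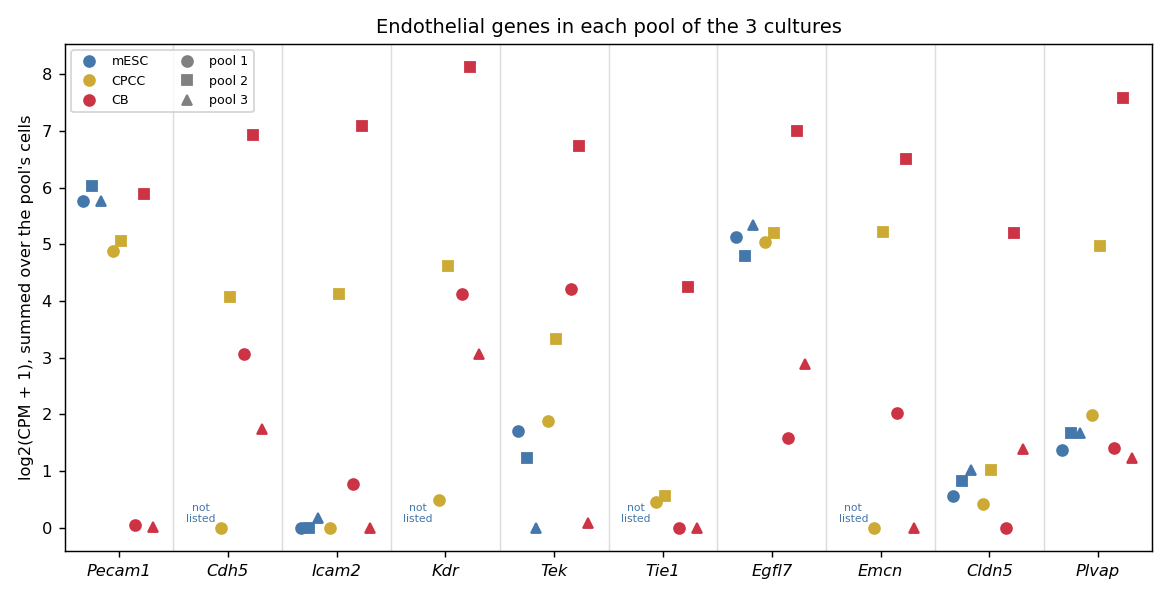
Level of each endothelial gene in each pool, as log2(CPM + 1) of the counts summed over the pool's cells (vertical axis), for mESC (blue), CPCC (yellow) and CB (red), with the marker shape giving the pool. CB pool 2 lies above both other CB pools for all 10 genes, whereas the 3 mESC pools lie close together for Pecam1 and Egfl7.

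Among the adhesion and junction genes, Pecam1 (chromosome 11, 106654217 to 106750628, GRCm38), which encodes a contact protein of endothelial cells and platelets, was the member with the most even presence in stem cells. Its level in mESC was 57.7 CPM (56.9 to 58.5), with 53.6, 64.5 and 53.2 CPM in the 3 pools. In CPCC it was 30.4 CPM, with 28.4 and 32.2 CPM in the pools. In CB it was 22.8 CPM, with 0.0321, 58.3 and 0.0139 CPM in pools 1, 2 and 3. Both CPCC pools lay below all mESC pools, whereas CB spanned the range from near 0 to the mESC level. The share of cells with Pecam1 was 87.9% in mESC (82.8 to 91.9%), 38.3% in CPCC and 10.3% in CB (24 of 232 cells). By pool it was 88.9%, 89.6% and 83.3% in mESC, 57% and 22.9% in CPCC and 1.45%, 26.9% and 2.35% in CB. All mESC pools lay above those of the other samples, whereas CPCC and CB overlapped, with pool 2 of CPCC below pool 2 of CB.

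Cdh5 (chromosome 8, 104101625 to 104144511) encodes VE-cadherin, the cadherin of endothelial junctions. It had 0 and 15.8 CPM in the CPCC pools and 7.36, 121 and 2.36 CPM in the CB pools. It was detected in 10 of 175 CPCC cells (5.71%) and 33 of 232 CB cells (14.2%). Icam2 (chromosome 11, 106377656 to 106388075), an adhesion protein of endothelium and some leukocytes, was found in 1 of 215 mESC cells, which held 13 counts. It had 0 and 16.3 CPM in the CPCC pools and 0.706, 135 and 0 CPM in the CB pools. In CB, 99.8% of its counts lay in pool 2. Cldn5 (chromosome 16, 18776847 to 18778262), a tight junction claudin of endothelium, was low in stem cells, with 0.470, 0.765 and 1.03 CPM in the mESC pools. It had 0.345 and 1.02 CPM in the CPCC pools and 0, 35.8 and 1.63 CPM in the CB pools.

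Among the receptors, Kdr (chromosome 5, 75932827 to 75978458), the main signalling receptor for VEGF, reached the highest summed level of all members in CB, 115 CPM. Its pools held 16.4, 278 and 7.40 CPM, and it was detected in 44 of 232 cells (19.0%). In CPCC it had 0.405 and 23.5 CPM in the pools, and a single cell supplied 94.0% of its counts. Tek (chromosome 4, 94739289 to 94874976), the angiopoietin receptor Tie2, was present at 2.27, 1.36 and 0 CPM in the mESC pools, from 11 of 215 cells. It had 2.71 and 9.04 CPM in the CPCC pools and 17.4, 106 and 0.0626 CPM in the CB pools. Tie1 (chromosome 4, 118471191 to 118490061), the partner receptor of Tek, was the lowest member. It had 0.375 and 0.484 CPM in the CPCC pools, and in CB all of its 2378 counts lay in pool 2, at 18.01 CPM. A count of 0 in CB pools 1 and 3 allows up to 0.0481 and 0.0209 CPM.

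Among the secreted and surface proteins, Egfl7 (chromosome 2, 26580014 to 26593120), a secreted factor of the vascular matrix, was the other member widespread in stem cells. It had 34.1, 26.9 and 39.5 CPM in the mESC pools, 31.9 and 35.9 CPM in the CPCC pools and 1.99, 126 and 6.41 CPM in the CB pools. The mESC and CPCC pools overlapped, and it was detected in 75.8% of mESC cells, 70.3% of CPCC cells and 23.7% of CB cells. Plvap (chromosome 8, 71497765 to 71511752), a protein of the diaphragms of vessel pores and caveolae, had 1.58, 2.18 and 2.21 CPM in the mESC pools. It had 2.997 and 30.3 CPM in the CPCC pools and 1.67, 191 and 1.33 CPM in the CB pools. Emcn (chromosome 3, 137341067 to 137432185), the surface sialomucin endomucin, had 0 and 36.1 CPM in the CPCC pools, where a single cell supplied 91.1% of its counts. In the CB pools it had 3.06, 89.4 and 0 CPM.

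The order of the levels changed between the samples. Per kilobase of exon, Pecam1 (9.27 CPM per kb) and Egfl7 (9.18) led in mESC and overlapped over the pools. They were followed by Plvap (1.01), Cldn5 (0.529), Tek (0.265) and Icam2 (0.0194), where neighbours overlapped over the pools except Egfl7 with Plvap and Plvap with Cldn5. In CPCC, Egfl7 (9.48) and Plvap (8.60) led, followed by Pecam1 (4.88), Icam2 (4.43), Emcn (3.45), Cdh5 (1.94), Kdr (1.37), Tek (1.27), Cldn5 (0.491) and Tie1 (0.0877), and among neighbours only the pools of Cldn5 and Tie1 lay apart. In CB, Plvap (37.9 CPM per kb) and Icam2 (27.8) led, Pecam1 was ninth (3.65) and Tie1 last (1.43), and the pools of all neighbours overlapped because each member ranged from a low pool to pool 2.

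The comparison of CPCC with mESC asks which members change when stem cells enter the precursor culture. Among the 6 members listed in both, the median log2 ratio of (CPM + 1) was 0.84, against -0.02 over all 20272 genes compared. Ratios of at least 2-fold were found for 3 members, upward for Icam2 (3.19), Plvap (2.59) and Tek (1.63), and for 0 downward. Of all genes, 13.4% were higher by 2-fold or more and 6.38% lower. When the pools of both samples also had to lie apart, 2 members were higher, Tek and Plvap, against 10.3% of genes. The count of lower members was 0, against 5.59% of genes. For Tek the nearest pools had 2.71 CPM (CPCC pool 1) and 2.27 CPM (mESC pool 1), with overlapping intervals. A single cell supplied 66.6% and 58.6% of the Tek counts of these pools, and 71.1% of those of CPCC pool 2. The call of Tek thus rested on few cells. Pecam1 had a ratio of -0.90 with its pools apart. The direction of the median rested on CPCC pool 2: without it the median was -0.047 and 0 members were higher by 2-fold, and without the highest cell of each member it was 0.43.

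The comparison of CB with mESC asks the same of the beating bodies. The median ratio of the 6 members was 3.75, against 0.13 over 19855 genes. Icam2 (5.70), Plvap (4.67), Tek (4.34) and Cldn5 (3.16) were higher by 2-fold or more and Pecam1 was lower (-1.31), while 24.9% of all genes were higher and 11.3% lower. With pools apart, 0 members were called in either direction, against 18.3% and 10.4% of genes. For CB over CPCC, where all 10 members were listed in both, the median was 2.48, against 0.14 over 20995 genes. Here 7 members were higher, from 2.08 for Plvap to 3.21 for Cldn5, and 0 were lower, against 17% and 7.54% of genes, and with pools apart the counts were 0 and 0, against 9.78% and 4.43%. Egfl7 (0.61), Emcn (0.89) and Pecam1 (-0.40) did not reach 2-fold. Without CB pool 2 the medians were -0.037 for CB over mESC and -1.72 for CB over CPCC, with 1 and 0 members higher by 2-fold, so both ratios rested on that pool.

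Within CB, all 10 members were higher by 2-fold or more in pool 2 than in both other pools, a contrast chosen after the values were seen, which 8.4% of the 24229 genes listed also met. Over the members, the median share of CB counts that lay in pool 2 was 96.8%, from 92.7% for Tek to 100% for Tie1, whereas the median gene had 40.0% of its counts there. Pool 2 held 39.0% of all CB counts and 78 of the 232 cells.

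Many cells held a single member, and few held most of the set. A cell was called member-rich when it held 5 or more members at 10 or more counts each. In CB, 156 cells held 0 members at that level, 43 held 1, 10 held 2 and 2 held 4. From 5 members up there were 21 cells (9.05%, 5.69 to 13.5%), of which 1 held 5, 1 held 6, 5 held 8, 3 held 9 and 11 held all 10. All 21 came from pool 2, where they made up 26.9% of the cells (17.5 to 38.2%), and 0 came from the 69 cells of pool 1 or the 85 of pool 3, which allows shares of up to 4.35% and 3.53% when a count of 0 is read as at most 3 cells, as it is for every share of 0 below. The exact 95% upper limits are 5.21% and 4.25%. CPCC held 4 such cells (2.29%, 0.626 to 5.75%), also all from its pool 2. In mESC, where 6 members were listed, there were 0 of 215, which allows up to 1.40%. The median depth of the CB member-rich cells was 1571350 counts, against 1832020 in the other cells of pool 2.

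**Figure D2:**
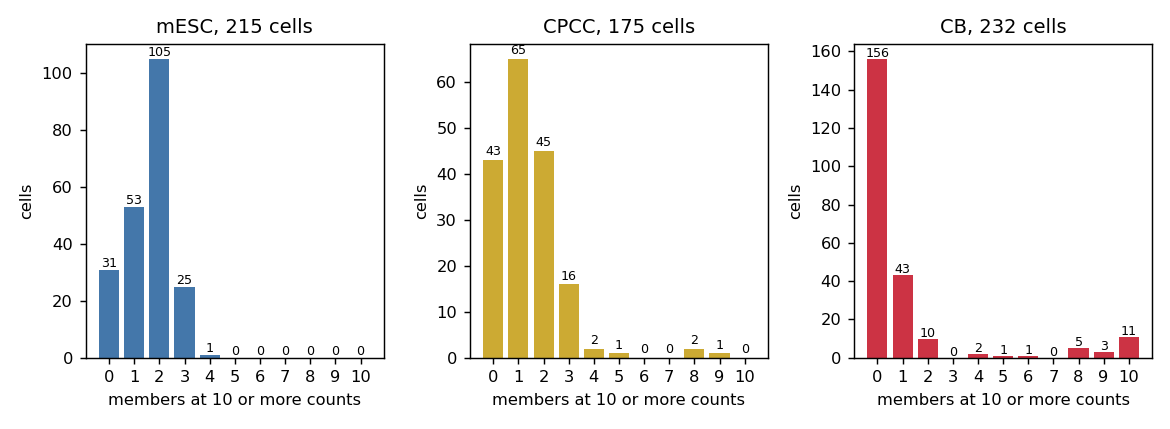
Number of cells (vertical axis, labelled on each bar) by the number of endothelial genes present at 10 or more counts (horizontal axis) in mESC, CPCC and CB. The CB cells separate into 211 with at most 4 members and 21 with 5 or more, 11 of them with all 10; in mESC only 6 of the 10 genes were listed.

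The cells at the limit were few. The member-rich CB cell with the fewest members was shallow, at 74135 counts, and held Cdh5, Icam2, Kdr, Egfl7 and Plvap. The next held 6 members, with no counts of Tie1, Emcn or Cldn5. Just outside the limit, 2 cells of pool 2 held 4 members each, and both carried Kdr, Egfl7, Emcn and Plvap without Icam2, Tek, Pecam1, Tie1 or Cldn5. Their Kdr levels were 229 and 1410 CPM.

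The choice of these cells used the members, so the following values describe them and are no test. Cdh5, Icam2, Kdr, Egfl7 and Plvap were detected in all 21 cells. Tie1 and Emcn were detected in 19, Pecam1 and Tek in 18 and Cldn5 in 16. The single-cell levels of Kdr ran from 8.32 to 2292 CPM with a median of 748 CPM, those of Plvap from 35.9 to 2935 CPM with a median of 405, and those of Cdh5 from 31.9 to 891 CPM with a median of 395. Pecam1 ranged from 0 to 1319 CPM with a median of 155 CPM, and Tie1 from 0 to 466 CPM with a median of 44.1. The ranges that begin at 0 include the cells in which that member was not detected. The 21 cells supplied 99.9% of the Pecam1 counts of CB, 99.7% of Icam2 and 96.4% of Plvap, but 77.8% of Egfl7 and 72.7% of Kdr, which were the members with most signal elsewhere. Outside them, Egfl7 was detected in 16.1% of CB cells, Kdr in 10.9% and Plvap in 8.06%, and Tie1 in 0.474%. Over all CB cells, the 45 pairs of members were present together at 10 or more counts in a median of 55.6% of the cells with either, from 30% to 94.1%.

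**Figure D3:**
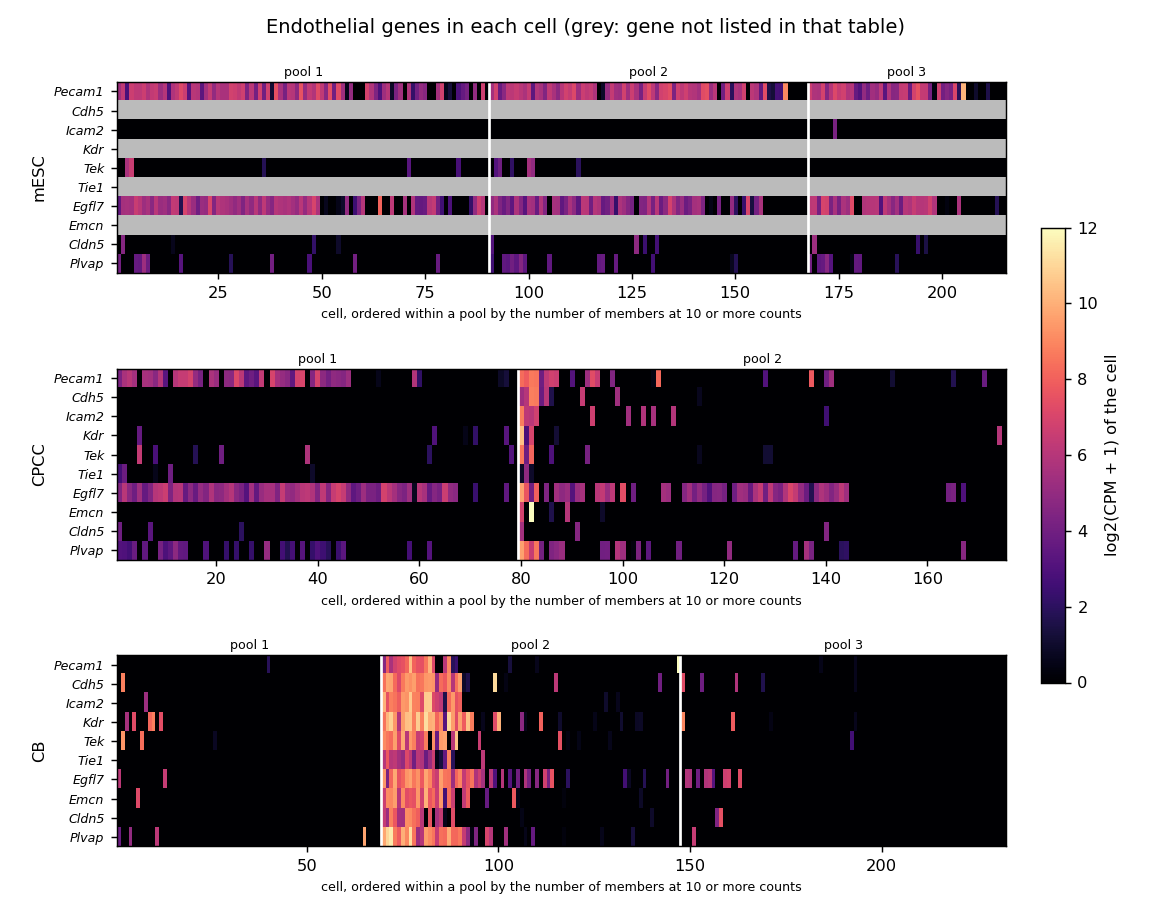
Level of each endothelial gene (rows) in each cell (columns) as log2(CPM + 1) of that cell, by sample and pool, with grey rows for genes not listed in mESC. Pecam1 and Egfl7 run across the mESC cells, and in CB a block of 21 cells at the start of pool 2 carries most of the 10 genes.

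Genes outside the members were then read in the 21 cells, against the other 211 CB cells and the other 57 cells of pool 2. A gene was counted as higher or lower when its log2 ratio of (CPM + 1) was at least 1 in size against both. Of all 24229 genes listed, 6.7% were higher and 13.1% lower by this rule. The lists were picked with results of these data known, and their counts are a description.

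All 20 further endothelial genes were higher. Cd93, a surface lectin-like receptor of endothelium, had 410 CPM in the member-rich cells and 0.0994 CPM in the other cells of pool 2. Ramp2, the adrenomedullin receptor partner, had 1325 against 71.6 CPM, and Ecscr, a regulator of endothelial migration, 448 against 1.59 CPM, with 15.1 CPM over all other CB cells. Esam, an adhesion protein of tight junctions, had 409 against 6.42 CPM, and Clec14a, a surface lectin of endothelium, 136 against 0 CPM. These genes were not used to choose the cells. Cd36, a fatty acid transporter, met the rule through 1 cell of 21, and Vwf, the clotting factor stored by mature endothelium, was detected in 9 of 21, whereas Nos3, the endothelial nitric oxide synthase, was detected in 18.

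Of the 18 endothelial transcription factors, 14 were higher and 0 lower. Among the SOXF factors, Sox18 had 230 against 0.0397 CPM in the other cells of pool 2, Sox17 95.1 against 1.53 CPM, and Sox7 176 against 17.2 CPM. At 10 or more counts, Sox18 was in 18 of the 21 cells, Sox17 in 15 and both in 14. Of the ETS factors, whose core is marked in the promoters above, Ets1 had 188 against 19.4 CPM, Elk3 345 against 26.3 CPM, Fli1 77.0 against 12.5 CPM and Erg 22.0 against 0.268 CPM. The ETS factor Etv2, which acts early and briefly in the origin of blood and endothelium, was among the 4 that did not meet the rule, with 17.0 against 37.0 CPM, as were Tal1 (36.6 against 20.9 CPM), Foxc2 and Klf4. By share of cells, however, Etv2 was detected in 38.1% against 14.0% and Tal1 in 42.9% against 8.77%. Without the 7 pool 2 cells with 10 or more Kdr counts described below, the rest of pool 2 held 8.48 CPM of Etv2 and 0.0234 CPM of Tal1. Lyl1, a relative of Tal1, had 19.2 CPM and was at 0 in the rest of pool 2.

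Of the 9 VEGF ligands and receptors that are not members, 4 were higher. These were the receptors Flt1 (267 against 18.8 CPM in the rest of pool 2) and Flt4 (80.4 against 2.49 CPM), the coreceptor Nrp1 (318 against 61.3 CPM) and the ligand Vegfc (109 against 25.2 CPM). The ligand Pgf was lower, with 5.42 against 70.7 CPM, and Vegfa had 31.5 against 63.7 CPM, a log2 ratio of -0.99 that stayed short of the rule. Of the 5 angiopoietin pathway genes, Ptprb, the phosphatase that restrains Tek, was higher, with 165 against 0 CPM. Angpt1, the activating ligand of Tek, was lower, with 0.223 against 12.3 CPM, as was Svep1, at 0 against 5.27 CPM.

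Of the 12 Notch and arterial genes, 9 were higher, among them the connexin Gja4 (511 against 0.914 CPM), the ligand Dll4 (78.2 against 0.517 CPM), Efnb2 (230 against 43.8 CPM) and Notch1 (126 against 11.03 CPM). Of 5 venous genes, the receptors Ephb4 (105 against 19.0 CPM) and Aplnr (166 against 5.05 CPM) were higher, and Nr2f2, the venous transcription factor, was lower (35.7 against 126 CPM). At 10 or more counts, Gja4 was in 14 of the 21 cells, Aplnr in 10 and both in 5. Gja5, a further arterial connexin, was in 3 cells, all of which carried Gja4. Of 5 lymphatic genes, Prox1, the factor that sets lymphatic fate, was at 0 and Pdpn lower, while Flt4 and Lyve1 were higher, Lyve1 through 2 cells.

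Of the 9 endocardial genes, 6 were higher, among them Npr3 (258 against 5.68 CPM), Nfatc1 (110 against 1.82 CPM) and Hapln1 (111 against 3.299 CPM), while Cdh11 was lower (19.7 against 223 CPM). Against all 211 other CB cells the differences of Npr3 and Nfatc1 were smaller, since those cells held 92.2 CPM of Npr3, detected in 37.9% of them, and 10.8 CPM of Nfatc1. Npr3, a natriuretic peptide receptor, was in 11 of the 21 cells at 10 or more counts, 8 of which also held Gja4. Npr3 and Hapln1 were together in 3 cells, and Npr3 and Nfatc1 in 5.

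Genes of other cell types were mostly low or absent there. Of the 12 macrophage genes, 9 were at 0 in the 21 cells, against 6695 of all 24229 genes listed. Of these 9, 6 were also at 0 in the other 57 cells of pool 2, among them Ptprc, Tyrobp and C1qb, so their absence did not set the 21 cells apart within the pool. Mrc1, a scavenger receptor that some endothelium also carries, was higher, with 122 against 0.00994 CPM in the rest of pool 2 and 11.7 CPM over all other CB cells. It was detected in 6 of the 21 cells, and 68.3% of its counts there came from 1 cell. Of the 8 erythroid and megakaryocyte genes that were listed, 3 were higher, and the largest, Itga2b, an integrin of platelets and early blood cells, had 15.4 CPM. Runx1, which marks the step from endothelium to blood, was lower, with 1.34 against 16.0 CPM. Of the 10 fibroblast genes 8 were lower, of the 8 epithelial genes 7, of the 8 smooth muscle genes 6 and of the 12 cardiomyocyte genes 9, and of the 7 pluripotent genes listed 3 were lower and 0 higher. Single cells stood apart from this: Myh6 was detected in 1 of the 21 cells, at 29.2 CPM over all of them. Among the 20 member-rich cells of 100000 or more counts, a cell held up to 7 of the 12 cardiomyocyte genes at 10 or more counts, and up to 4 fibroblast or 4 epithelial genes. The summed level of the cardiomyocyte list reached 2102 CPM in a cell and that of the epithelial list 928 CPM, against medians of 7.11 and 0.567 CPM over these cells. Whether such a cell shared its chamber with another was not tested, because the study's record of chambers with several cells is not tied to the columns.

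**Figure D4:**
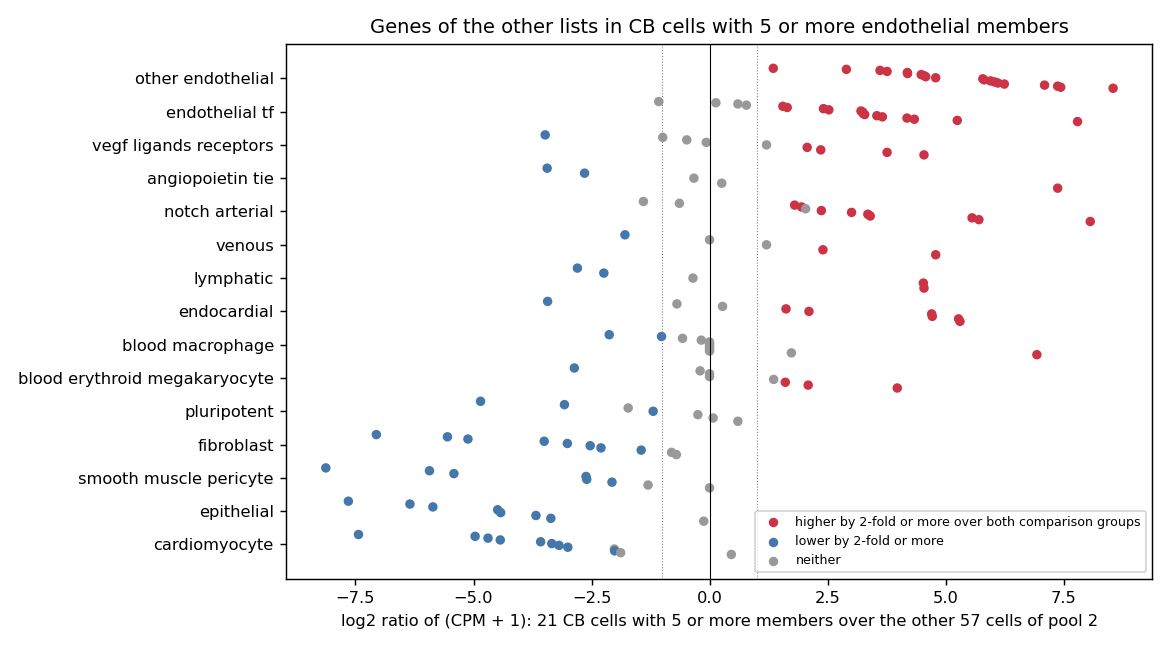
Log2 ratio of (CPM + 1) in the 21 member-rich CB cells over the other 57 cells of pool 2 (horizontal axis) for each gene of the other lists (rows), red or blue where the gene was higher or lower by 2-fold or more over both comparison groups and grey otherwise. All 20 genes of the other endothelial list lie to the right, and 7 of 8 epithelial genes are marked as lower.

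The genes whose pattern was most like that of the members were found by the Pearson correlation of log2(CPM + 1) with the mean of the members over the 219 CB cells of 100000 or more counts, among 16485 genes. The highest were Cd93 (0.95), Esam (0.90), Rasip1 (0.90), Rasgrp3 (0.88), Mmrn2 (0.87), Sox18 (0.87), Gimap6 (0.85), Flt4 (0.85), Arap3 (0.84), Thsd1 (0.84), Clec1b (0.82), Myct1 (0.82), Klhl4 (0.80), Adgrl4 (0.80) and Bcl6b (0.78). Rasip1, Rasgrp3 and Arap3 encode regulators of small GTPases. Within the 72 such cells of pool 2 the values were 0.95 for Cd93, 0.92 for Esam and 0.77 for Bcl6b. All of these cells share their chip chemistry and differ in depth, and the correlations rest on the contrast between the member-rich cells and the rest. Gene by gene, the most similar to Pecam1 were Tie1 (0.92) and Icam2 (0.90), to Cdh5 Esam (0.90) and Cd93 (0.87), to Icam2 Cd93 (0.97) and Pecam1 (0.90), to Kdr Cd93 (0.77) and Esam (0.77), and to Tek Cd93 (0.79) and Cdh5 (0.78). For Tie1 they were Pecam1 (0.92) and Icam2 (0.85), for Egfl7 Rasgrp3 (0.77) and Rasip1 (0.71), for Emcn Icam2 (0.86) and Flt4 (0.85), for Cldn5 Icam2 (0.82) and Cd93 (0.79), and for Plvap Cd93 (0.87) and Icam2 (0.86). The highest correlations of Egfl7 and Kdr were the lowest among the 10 members, and these were also the members most often found outside the member-rich cells. The other members did not follow this order. Tek was close to Kdr in correlation (0.79) but was detected in 4.27% of the other CB cells, whereas Plvap (0.87) was detected in 8.06%.

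Kdr was also carried by cells with few or none of the other members. In CB, 14 cells outside the member-rich group had 10 or more Kdr counts, 5 in pool 1, 7 in pool 2 and 2 in pool 3, and 9 of them held no other member at that level. This group was formed after the values were seen. Their Kdr levels ran from 26.1 to 1410 CPM with a median of 246, which overlapped the range of the member-rich cells. Icam2, Tek, Pecam1 and Tie1 were at 0 in all 14. The other members were present in a few of them: Cdh5 had 78.3 CPM from 4 cells, with 85.8% of its counts in 1 of these, Egfl7 64.7 CPM from 4, Emcn 21.6 CPM from 2, Plvap 9.25 CPM from 3 and Cldn5 0.0424 CPM from 1. The levels of Cdh5, Egfl7, Emcn and Plvap in the member-rich cells were 456, 439, 342 and 783 CPM. Among other endothelial genes, Ramp2, a subunit of the adrenomedullin receptor, was detected in 12 of the 14, at 139 CPM against 1325 CPM in the member-rich cells. Elk3, an ETS factor, was detected in 11, at 114 against 345 CPM, and Esam, a junction protein, in 4, at 27.3 against 409 CPM. Over all 211 CB cells outside the member-rich group, which include the 14, Ramp2 had 51.9 CPM in 41.7% of cells. Elk3 had 36.6 CPM in 46.4% of them and Esam 3.37 CPM in 6.16%. Etv2 had 127 CPM in these cells, from 2 of the 14, with 77.5% of its counts in 1 of them. In the member-rich cells it had 17.0 CPM but was detected in 8 of 21, a higher share of cells. Tal1 had 89.2 CPM, from 3 of the 14, against 36.6 CPM in the member-rich cells, from 9 of 21. Sox18 had 0.0424 CPM in the 14 cells, against 230 CPM in the member-rich cells. Pdgfra, a receptor of mesodermal and fibroblast cells, had 139 CPM in 8 of the 14, with 50.3% of its counts in 1 cell. It had 0.159 CPM in the member-rich cells. All 211 CB cells outside the member-rich group, which include the 14, held 180 CPM, and 47.9% of them had it. The cells of pool 2 in neither group held 38.2 CPM. Its level in the 14 cells was thus not above that of CB cells at large, but above that of the rest of pool 2, the pool of 7 of the 14. Actc1, a cardiac actin, had 1887 CPM, all from 1 cell.

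The CPCC member-rich cells were 4, too few for a comparison, and differed from each other. The first held 9 members, led by Kdr (1362 CPM), Egfl7 (830 CPM) and Plvap (781 CPM). The second held 8 members together with 12 of 12 macrophage genes, with C1qb, a complement subunit, at 3386 CPM. The third held 8, with Emcn at 4497 CPM and Cdh5 at 445 CPM, and 0 macrophage genes. The fourth held 5, with no counts of Kdr, Tek, Tie1, Emcn or Cldn5, and carried Cd34 at 3093 CPM and Tnnt2, a cardiac troponin, at 2151 CPM. Pecam1 was similar across them, from 231 to 406 CPM, while Emcn ranged from 0 to 4497 CPM. These cells supplied 98.3% of the Kdr, 96.3% of the Emcn, 79.7% of the Cdh5 and 78.4% of the Plvap counts of CPCC, against 32.3% of Pecam1 and 33.2% of Egfl7.

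Members carried by stem cells were read in cells that held 6 or more of 10 pluripotent genes at 10 or more counts. In mESC, 198 of 215 cells did so. Pecam1 was detected in 92.9% of them (88.4 to 96.1%), Egfl7 in 80.3% (74.1 to 85.6%), Plvap in 17.2%, and Tek and Cldn5 in 5.56% each. The other 17 mESC cells had a median of 16721 counts. In CPCC, 80 cells held 6 or more pluripotent genes, 59 in pool 1 and 21 in pool 2. Pecam1 was detected in 65% of these (53.5 to 75.3%), at 35.0 CPM, and Egfl7 in 92.5% (84.4 to 97.2%), at 37.0 CPM. In the 73 CPCC cells with neither pluripotent nor macrophage genes nor 5 members, Pecam1 was detected in 9.59% (3.94 to 18.8%), at 3.04 CPM, and Egfl7 in 58.9% (46.8 to 70.3%), at 16.4 CPM. The contrast of Pecam1 was present in both pools, with 72.9% against 10% of the cells in pool 1 and 42.9% against 9.43% in pool 2. The median depths of the 80 and the 73 cells were 1438230 and 1270830 counts. Near the limit, 10 CPCC cells held 5 or 6 pluripotent genes. Plvap was detected in 41.2% of the CPCC cells with pluripotent genes and 17.8% of those with neither, at 4.03 and 4.30 CPM, but the pools differed. In pool 1 the shares were 45.8% and 5%, at 3.85 and 0.574 CPM, and in pool 2 they were 28.6% and 22.6%, at 4.85 and 6.03 CPM. Cdh5, Kdr and Emcn had 0.00836, 0.0668 and 0 CPM in the CPCC cells with pluripotent genes. In CB, where 7 of the pluripotent genes were listed, 0 of 232 cells held 6 of them, and outside the member-rich and macrophage gene cells Pecam1 was detected in 2.90% of cells, at 0.0332 CPM.

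**Figure D5:**
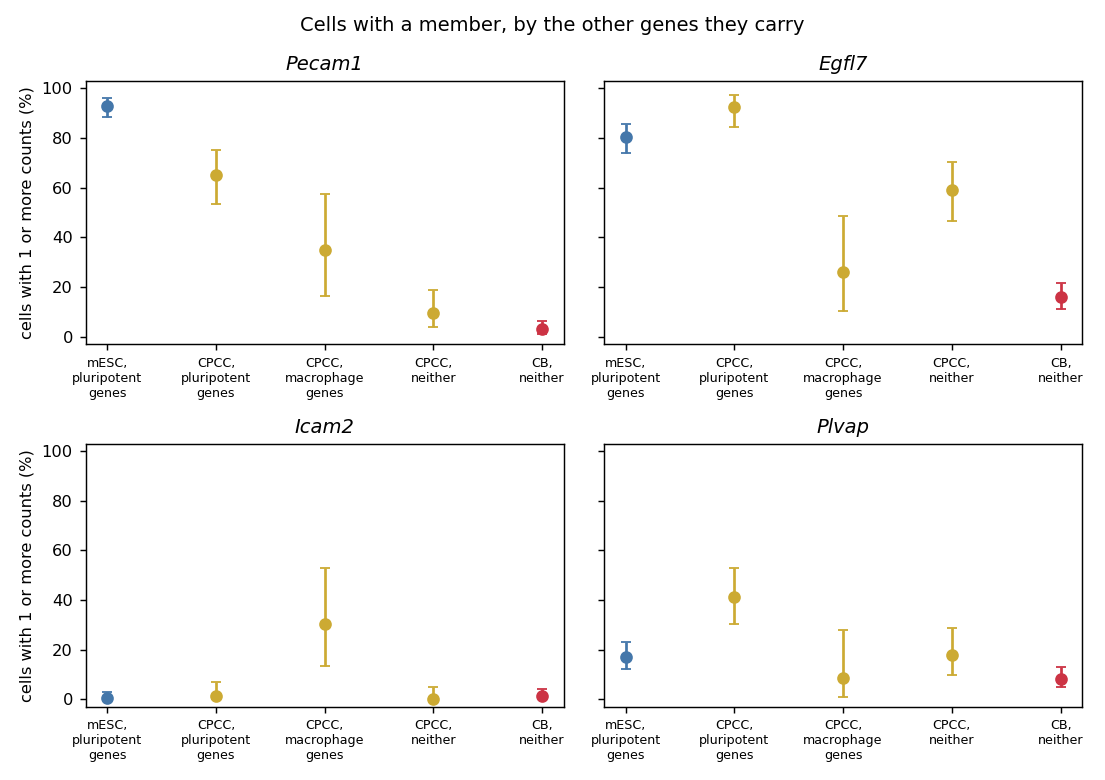
Share of cells with 1 or more counts (vertical axis, percent, with exact 95% binomial intervals) of Pecam1, Egfl7, Icam2 and Plvap in cells with pluripotent genes, with macrophage genes and with neither (horizontal axis; neither also excludes member-rich cells), by sample. Pecam1 is at 92.9% in the mESC cells and at 65% and 9.59% in the CPCC cells with and without pluripotent genes, and Icam2 is highest in CPCC cells with macrophage genes.

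The 23 CPCC cells with 4 or more of 12 macrophage genes, all in pool 2, carried Pecam1, Icam2 and Egfl7 in 8, 7 and 6 cells. Icam2 was detected in 30.4% of them (13.2 to 52.9%), at 21.3 CPM, and in 0 of the 73 cells with neither kind of gene, which allows up to 4.11%. Pecam1 was detected in 34.8% (16.4 to 57.3%), at 38.8 CPM. Egfl7 was detected in 26.1% (10.2 to 48.4%), an interval that overlaps that of the 73 cells (46.8 to 70.3%). The 23 cells include the member-rich cell with 12 macrophage genes. In CB, 4 cells held 4 or more macrophage genes, and 9 of the 10 members were at 0 in them, the exception being Egfl7 in 1 cell.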

How the data were processed

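Cells were isolated with the Fluidigm C1 system, cDNA was made with SMART-Seq chemistry, and the authors aligned the reads with STAR 2.7 in Partek Flow to GRCm38 (mm10). The deposited tables hold estimated counts per gene and cell, not scaled and, in CPCC, whole numbers only (28.9% and 30.8% of values above 0 were not whole in mESC and CB). Counting model and use of strand are not given in the sources used here. Reads of the CAST/EiJ alleles were aligned to the same reference, and the effect was not tested. Rows without a gene (208) and with a symbol turned into a date (23), both in CPCC, held 0.139% of its counts and were left out, as were 2 columns of no sample.

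Counts were summed per sample or pool and divided by summed gene counts (CPM). Ratios were log2 of (CPM + 1), which understates changes of low genes. Scripts ran under Python 3.11.15, pandas 2.3.3 and scipy 1.17.1; scaling alternatives used edgeR 4.0.16 and DESeq2 1.42.0 under R 4.3.3 on rounded counts. The ratio step was tested on simulated counts of well-detected genes without pool differences. That setting does not cover members held by a few cells of 1 pool. Shares carry Clopper-Pearson and sums Poisson intervals. No test was made, since there was 1 sample per group, and no doublet caller was run. No library number was shared between samples. Gene positions and exon lengths are from GENCODE M21.

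Genes named in the text were the 10 members, genes of the fixed lists, the 15 genes most correlated with the members in CB and the 2 most correlated with each member. The rule also covered the 5 genes most correlated with Pecam1 in mESC and CPCC, of which 1 is not reported here. The members, lists and limits were chosen with earlier results of these data known.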

Additional observations from a re-analysis of the deposited data

How the results depend on the processing

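The median log2 ratio of the members changed sign without pool 2 of the differentiated sample, to -0.047 for CPCC over mESC, -0.037 for CB over mESC and -1.72 for CB over CPCC, from 0.84, 3.75 and 2.48. The members higher by 2-fold then numbered 0, 1 and 0, from 3, 4 and 7. Without CPCC pool 1 the CPCC over mESC and CB over CPCC medians were 1.19 and 1.61, and without CPCC pool 2 the latter was 3.94. Without CB pool 3 the CB medians were 4.49 over mESC and 3.22 over CPCC, and without CB pool 1 the median over CPCC was 2.73. A pseudocount of 0.1 CPM gave 1.11 for CPCC over mESC and 4.59 for CB over mESC. A pseudocount of 10 CPM gave 0.27, 1.74 and 1.43 for the 3 comparisons, with 1 member higher in CPCC over mESC. Without the highest cell of each member the medians were 0.43 for CPCC over mESC and 3.04 for CB over CPCC. Other scalings, equal weight of cells and filters on cells or genes left the 3 medians within 0.25. Asking for 3 members per cell gave 26 mESC, 22 CPCC and 23 CB cells in place of 0, 4 and 21. Of 104 alternative shares of cells, 7 moved beyond their interval, all downward, 6 of them with detection at 10 counts. The contrast of CB pool 2 with the other pools, the cells with Kdr alone and the promoter counts were added after the data were seen. No paired analysis was possible because no replicate number is given for any column, and no result rests on a test.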

Other observations

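The genes most correlated with Pecam1 were weakly so in the stem cells. In 203 mESC cells of 100000 or more counts they included Gm17936 (Pearson r of 0.44), Lamtor2 (0.44), Cnn3 (0.43) and Gm4815 (0.42). In 169 CPCC cells they were Arl14epl (0.53), Gtsf1l (0.52), Morc1 (0.51), Gm40977 (0.51) and Gm14406 (0.51). Genes detected in under 5% of a sample's cells were left out, and Tie1, at 4.57% of CPCC cells and not listed for mESC, was not compared in either sample. These values are across cells of a sample, and cells are not replicates.

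Etv2 and Tal1, factors at the origin of blood and endothelium, were each carried by part of the member-rich CB cells. At 10 or more counts, Etv2 was in 7 of the 21 cells and Tal1 in 8, with both in 5 and neither in 11. Hey1, a Notch target, was in 12 of the 21, and 9 of these also held the arterial connexin Gja4.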
